A study of Mus musculus with 8 samples.

Results

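The 76 genes described here encode proteins of the mitochondrial ribosome and were chosen by name: every probe on the array whose gene symbol starts with Mrpl or Mrps followed by a number was taken, 110 probes of 25697 and 76 genes of 16593. Of these, 86 probes of 67 genes were detected (detection p under 0.05) on 4 or more of the 8 arrays and were tested, 50 probes of 41 large-subunit genes (Mrpl) and 36 probes of 26 small-subunit genes (Mrps). The 9 genes with no tested probe were Mrpl15, Mrpl19, Mrpl21, Mrpl32, Mrpl39, Mrpl45, Mrps14, Mrps15 and Mrps36. RNA came from the hearts of mice aged 2 months, 1 heart per array, measured on Illumina mouse bead arrays. In 4 transgenic mice a short hairpin RNA induced by doxycycline lowered Taz, the gene of the cardiolipin-remodelling enzyme tafazzin, as a model of Barth syndrome. The other 4 were wild-type littermates. All 8 mice were C57BL/6J and received doxycycline in the feed at 625 mg/kg, so knockdown and wild type share the drug. The labels do not say which promoter drives the hairpin, in which cells it acts or what sex the mice were.

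Mitochondrial ribosomes translate the small set of messenger RNAs made from mitochondrial DNA, which encode membrane subunits of the respiratory chain and of ATP synthase. Their proteins are encoded in the nucleus, made in the cytosol and imported. They join a large-subunit ribosomal RNA, around which peptide bonds are formed, and a small-subunit ribosomal RNA, where codons are read. Some of these proteins descend from bacterial ribosomal proteins and others are found only in mitochondria. The heart, which lives on respiration, depends on this machinery.

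The target of the hairpin was measured first. The brighter Taz probe (ILMN_2978525) had deposited signals of 69.9, 68.1, 53.3 and 59.5 in knockdown hearts and 539, 639, 477 and 516 in wild-type hearts. After normalization the log2 difference was -2.88 ± 0.117 (SE, n = 4 each; limma adjusted p = 1.11e-07). Between 9027 and 10183 probes were detected per knockdown array and between 8935 and 9601 per wild-type array. Of the 110 mitoribosomal probes, 86 to 87 were detected per knockdown array and 83 to 87 per wild-type array.

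A single tested mitoribosomal gene was higher in Taz knockdown hearts, and it was so by both of its probes. Mrps18b encodes a small-subunit protein, 1 of 3 mammalian relatives of the bacterial protein S18. Its brighter probe (ILMN_2865239) had deposited signals of 911, 778, 677 and 550 in knockdown hearts and 501, 512, 375 and 404 in wild-type hearts. Every knockdown heart lay above every wild-type heart. The normalized level was 1.55-fold higher (95% interval 1.32 to 1.82), a log2 difference of 0.63 ± 0.106 (SE, n = 4 each; limma adjusted p = 0.00515). The second probe (ILMN_1226334) had signals of 257, 240, 160 and 160 in knockdown hearts and 135, 131, 85.1 and 109 in wild-type hearts. The groups of the second probe did not overlap either, and the difference was 0.69 ± 0.126 (SE; limma adjusted p = 0.00784), or 1.62-fold (1.34 to 1.96). With any single heart left out both probes stayed past the threshold, with differences of 0.57 to 0.68 for the brighter probe and 0.62 to 0.79 for the other. The probes belong to the same gene and the same hearts, so they are not independent replicates.

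The relatives of Mrps18b that descend from the same bacterial protein had smaller values. Mrps18a, which structures of the mammalian ribosome place in the large subunit in spite of its name, had signals of 1515, 1294, 1123 and 1096 in knockdown hearts and 1159, 1102, 969 and 1117 in wild-type hearts. Its log2 difference was 0.15 (95% interval -0.06 to 0.37; limma adjusted p = 0.427), and the groups overlapped after normalization. Mrps18c, the small-subunit relative that keeps the bacterial position, was dim, with signals of 43.1, 23.0, 24.8 and 26.1 in knockdown hearts and 18.6, 30.1, 33.2 and 20.7 in wild-type hearts. Its difference was 0.06 (-0.28 to 0.40; limma adjusted p = 0.878). Whether the change of Mrps18b differs from that of its relatives was not tested, since Mrps18b is singled out by its value.

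Mrps25 and Mrpl49 were lower in the knockdown hearts, each by 1 probe. In bulk tissue, fewer cells of a type and less RNA per cell cannot be told apart. Mrps25 encodes a small-subunit protein without a bacterial counterpart. Its probe ILMN_1239113 had deposited signals of 145, 134, 112 and 74.99 in knockdown hearts and 187, 196, 119 and 150 in wild-type hearts. The deposited signals overlapped, but the normalized log2 values, 7.05, 7.19, 6.998 and 6.74 in knockdown hearts and 7.56, 7.66, 7.37 and 7.34 in wild-type hearts, did not. The difference was -0.49 ± 0.126 (SE, n = 4 each; limma adjusted p = 0.0433), a 1.41-fold decrease (95% interval 1.16 to 1.70). The other tested probe of Mrps25 (ILMN_2680111) gave -0.26 (-0.54 to 0.02; adjusted p = 0.276), with overlapping groups. The call of Mrps25 held without knockdown heart 2 and was lost when any other single heart was left out, with adjusted p from 0.0456 to 0.106 over the 8 fits and differences from -0.56 to -0.41. It was also lost with the deposited quantile-normalized values (adjusted p = 0.0551), with scaling in place of quantile normalization (adjusted p = 0.0517) and with no filter on dim probes (adjusted p = 0.0719).

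Mrpl49 encodes a large-subunit protein found only in mitochondria. Its brightest probe (ILMN_2634295) had signals of 842, 799, 766 and 649 in knockdown hearts and 1076, 1057, 887 and 1103 in wild-type hearts. The 4 knockdown values were the lowest of the 8, before and after normalization. The level was 1.37-fold lower (95% interval 1.18 to 1.59), a log2 difference of -0.46 ± 0.0971 (SE, n = 4 each; limma adjusted p = 0.0177). The call was lost without knockdown heart 1 (adjusted p = 0.0566) and without wild-type heart 4 (0.0543). The remaining tested probes of Mrpl49 gave -0.22 (-0.50 to 0.05; adjusted p = 0.342) and -0.04 (-0.44 to 0.36; adjusted p = 0.924). The last of these, ILMN_2701363, was dim, with signals of 28.02 to 35.6 in knockdown hearts and 17.7 to 52.6 in wild-type hearts. Mrpl49 was the only member whose tested probes differed from each other by over 0.4.

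**Figure D1:**
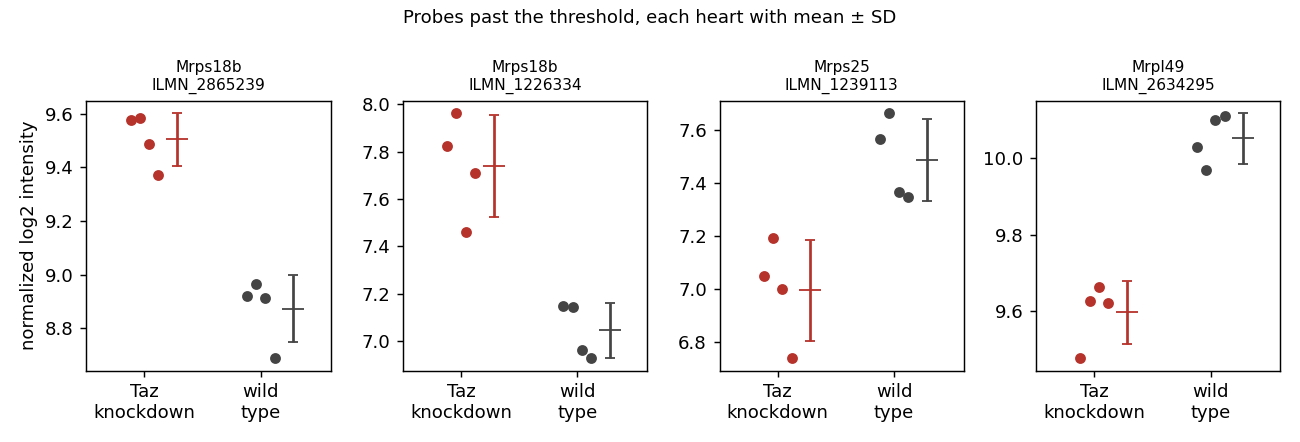
Normalized log2 intensity (y axis, a separate scale for each panel) of the 4 mitoribosomal probes past the threshold, with a point per heart, knockdown at the left and wild type at the right of each panel, and the mean ± SD of 4 hearts beside the points. The 2 probes of Mrps18b lie higher in all 4 knockdown hearts, and the probes of Mrps25 and Mrpl49 lower in all 4.

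The promoter windows of the 3 genes past the threshold were searched for short motifs. Whether a motif in the window goes with the direction of change was not tested. Each window runs from 250 bases before to 50 bases after the annotated start in RefSeq (build GRCm38.p6), is read on the minus strand from 5′ to 3′, and has matches to any of 3 motifs in capitals. The motifs were the core of the NRF1 site (GCATGCGC), an ETS site (CCGGAAG) of the kind bound by GABP, and a YY1 site (AAGATGGC), factors known to act on nuclear genes of mitochondrial proteins. They were searched as written and as reverse complement.
Mrps18b, chr17:35916391-35916690: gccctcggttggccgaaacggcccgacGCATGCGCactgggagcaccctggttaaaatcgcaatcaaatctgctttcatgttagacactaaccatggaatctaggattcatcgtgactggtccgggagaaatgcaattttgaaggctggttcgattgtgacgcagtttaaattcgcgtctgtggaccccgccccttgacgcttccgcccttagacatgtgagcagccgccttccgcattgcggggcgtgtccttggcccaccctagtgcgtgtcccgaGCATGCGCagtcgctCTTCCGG
Mrps25, chr6:92183974-92184273: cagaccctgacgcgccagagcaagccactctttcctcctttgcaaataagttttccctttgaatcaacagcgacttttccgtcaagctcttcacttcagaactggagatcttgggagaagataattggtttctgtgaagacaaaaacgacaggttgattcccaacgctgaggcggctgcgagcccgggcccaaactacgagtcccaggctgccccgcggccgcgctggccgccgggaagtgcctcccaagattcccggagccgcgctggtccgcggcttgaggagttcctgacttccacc
Mrpl49, chr19:6057706-6058005: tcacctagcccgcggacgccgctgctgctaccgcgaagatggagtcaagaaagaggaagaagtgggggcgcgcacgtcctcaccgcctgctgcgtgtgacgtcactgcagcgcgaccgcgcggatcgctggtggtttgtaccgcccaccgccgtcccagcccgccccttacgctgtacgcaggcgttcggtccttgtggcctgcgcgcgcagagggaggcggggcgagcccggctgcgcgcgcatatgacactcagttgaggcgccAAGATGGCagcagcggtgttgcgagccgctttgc

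The Mrps18b window held 3 matches that do not overlap, 2 to the NRF1 core and 1 to the ETS site as reverse complement. The second NRF1 match and the ETS match lie in the last 50 bases, after the annotated start. The Mrpl49 window held 1 match, to the YY1 site and also in the last 50 bases, and the Mrps25 window none. Windows were listed for 60 of the 67 tested genes, 66 windows in all. The NRF1 core was present in 6 of them (9.09%), against 2.71% of all 32851 promoter windows of the same length and 3.52% of the 21263 windows of protein-coding genes. The ETS site was present in 25 (37.9%), against 8.86% of all windows and 11.6% of the protein-coding ones. The YY1 site was present in 11 (16.7%), against 2.75% and 3.05%. The reference windows were not limited to genes detected in these hearts, as the mitoribosomal ones were, and no share over all tested genes was taken. A match is a string of letters and was not shown to be a bound site. Of the genes that lie beside the 3 on the chromosome in RefSeq, Fau, whose strand is opposite to that of Mrpl49, stood at 0.10 (limma adjusted p = 0.645), Syvn1, on the opposite strand and overlapping Mrpl49 in the annotation, at -0.12 (adjusted p = 0.570) and Rbsn, next to Mrps25, at -0.06 (adjusted p = 0.853). Nr2c2, which overlaps Mrps25 on the opposite strand, and Ppp1r10 and Atat1, which flank Mrps18b, had no tested probe, so no neighbour of Mrps18b was measured here. Ppp1r10 lies on the opposite strand, 72 bases from Mrps18b, and Fau lies 192 bases from Mrpl49. Both distances are less than the 250 bases that a window runs before the start.

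Taken over all mitoribosomal probes, few passed the test. Of the 86 probes 4 passed the limma adjusted p of 0.05 (4.65%), against 6.58% of all 9397 tested probes. The 2 higher probes were 2.33% of the mitoribosomal probes, against 3.42% of all, and the 2 lower probes 2.33%, against 3.16%. By genes, 1 of 67 rose (Mrps18b), 2 fell and 64 did not pass. The count of lower probes was 0 without knockdown heart 1 or without wild-type heart 4, 1 without any of knockdown heart 4, wild-type heart 1 and wild-type heart 3 in turn, and 3 with wild-type heart 2 left out. At an unadjusted p under 0.05, 6 probes were higher and 15 lower, where 9.92% and 10.9% of all tested probes were. In 17 of the 86 probes (19.8%) the groups did not overlap, against 14.6% of all tested probes. Among these, 4 were higher in knockdown hearts (4.65%, against 6.98% of all) and 13 were lower (15.1%, against 7.65% of all). The probes of a ribosome share the same 8 hearts, and nothing particular to it is drawn from these shares.

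**Figure D2:**
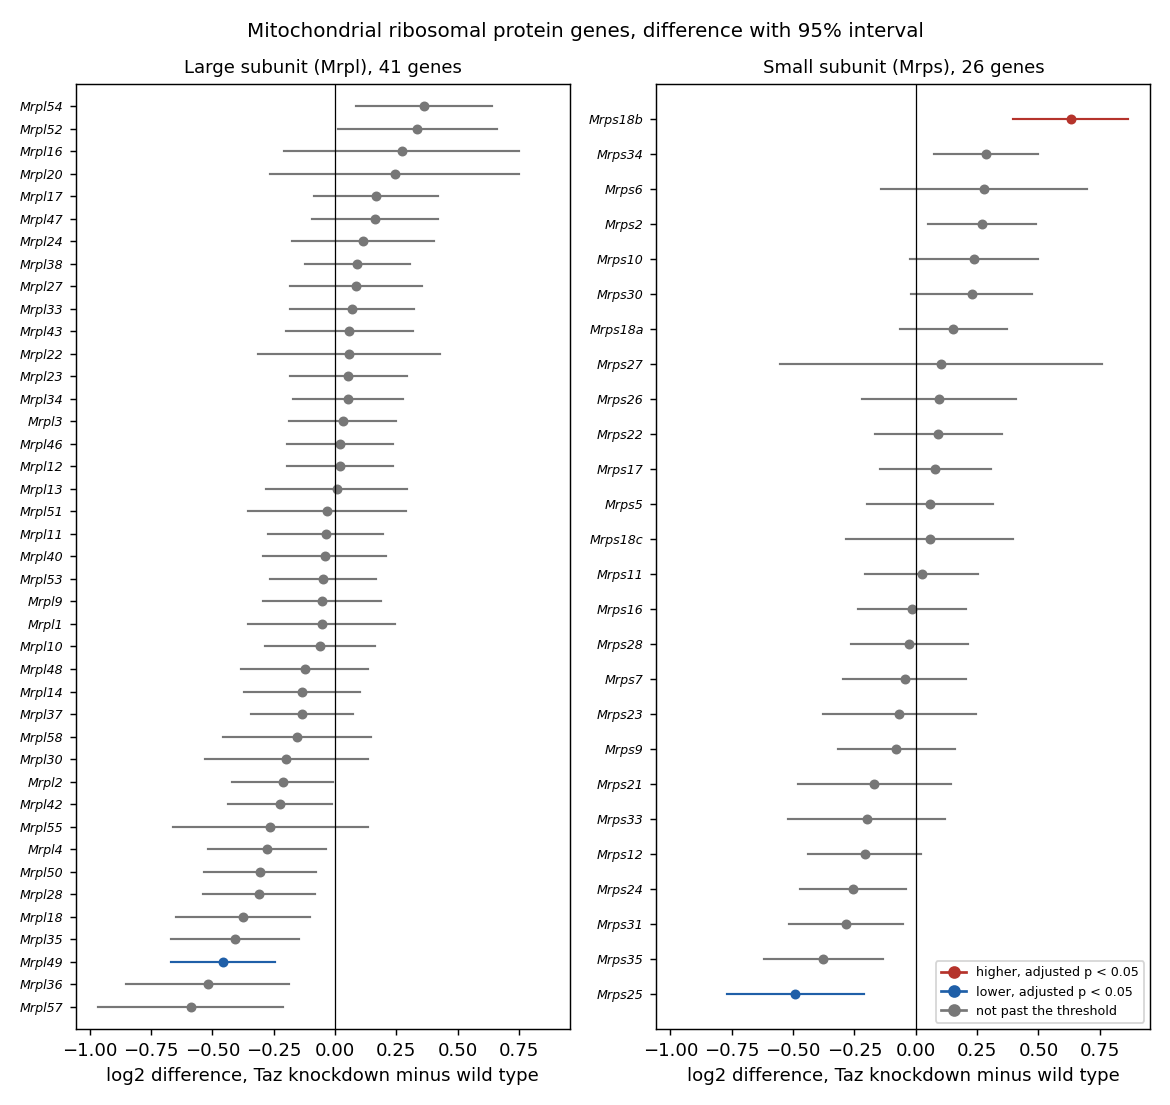
Log2 difference of Taz knockdown minus wild type (x axis) for the 67 tested genes, 1 probe per gene (the brightest), with the 95% interval of limma as a line, large-subunit genes at the left and small-subunit genes at the right. Mrps18b stands at the top of its panel at 0.63, Mrps25 (-0.49) and Mrpl49 (-0.46) are the lower genes past the threshold, and most of the other intervals cross 0.

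The gene differences were small. By the brightest probe of each gene they ran from -0.59 to 0.63 on the log2 scale, with a median of -0.03 and quartiles of -0.20 and 0.09. Over all 6889 tested genes the median was -0.01 and the quartiles were -0.16 and 0.14. Of the 67 genes 47 (70.1%) differed by less than 0.25 in either direction, as did 72.0% of all tested genes. The median SD within a group was 0.139 for the mitoribosomal genes and 0.188 for all tested genes.

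The other large decreases did not pass the test. Mrpl57, a large-subunit protein found only in mitochondria, had signals of 32.9, 18.5, 37.9 and 19.0 in knockdown hearts and 55.3, 33.3, 46.3 and 53.7 in wild-type hearts. Its log2 difference was -0.59 (95% interval -0.97 to -0.21; limma adjusted p = 0.0685), with 1 knockdown heart below the detection limit and overlapping groups. Mrpl36, a small protein conserved from bacteria, had signals of 456, 266, 319 and 220 in knockdown hearts and 567, 374, 372 and 431 in wild-type hearts. The difference was -0.52 (-0.85 to -0.19; adjusted p = 0.0681), and knockdown heart 1 lay above the lowest wild-type heart after normalization. Mrpl35 (-0.41, adjusted p = 0.0671), also conserved from bacteria, and Mrps35 (-0.38, adjusted p = 0.0681), a small-subunit protein of mitochondria only, had groups that did not overlap after normalization.

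Mrpl18, which in bacteria binds the small ribosomal RNA of the large subunit, stood at -0.37 (adjusted p = 0.110) and Mrpl28, conserved from bacteria, at -0.31 (adjusted p = 0.114). Mrpl28 had 2480, 2028, 1870 and 1625 in knockdown hearts and 2511, 2762, 2186 and 2174 in wild-type hearts. With an offset of 50 in the background step Mrpl36, Mrpl35, Mrps35, Mrpl18 and Mrpl28 passed (adjusted p from 0.0215 to 0.0473). With probes required on all 8 arrays at a detection p under 0.01 Mrpl36, Mrpl35 and Mrps35 did. When the variance prior followed intensity, Mrpl36, Mrps35, Mrpl18 and Mrpl28 passed (limma adjusted p from 0.0156 to 0.0331).

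On the side of the increases, Mrpl54, a large-subunit protein of mitochondria only, had signals of 960, 835, 736 and 522 in knockdown hearts and 565, 535, 529 and 633 in wild-type hearts. The difference was 0.36 (95% interval 0.08 to 0.64; limma adjusted p = 0.127). Mrps34, a small-subunit protein of mitochondria only, had signals of 3371, 3158, 2905 and 2653 in knockdown hearts and 2635, 2744, 1852 and 2481 in wild-type hearts. The deposited signals overlapped and the normalized values did not. The difference was 0.28 (0.07 to 0.50; adjusted p = 0.115). Both passed when the variance prior followed intensity, Mrpl54 with adjusted p = 0.0369 and Mrps34 with 0.0190. That setting called 4 mitoribosomal probes higher and 8 lower.

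Mrps2, conserved from bacteria and dim on these arrays, stood at 0.27 (adjusted p = 0.148), with normalized values in all 4 knockdown hearts above those in any wild-type heart. Mrps6, conserved from bacteria, stood at 0.28 (adjusted p = 0.457) with a wild-type range of 62.4 to 175 that enclosed the knockdown range of 105 to 156. Mrpl52 (0.34, adjusted p = 0.222), Mrpl16 (0.27, adjusted p = 0.537) and Mrpl20 (0.24, adjusted p = 0.614) were near background, detected in 3, 4 and 4 knockdown hearts and in 1, 3 and 2 wild-type hearts. The value of Mrpl16 rested on wild-type heart 3, without which it was 0.011. That of Mrpl20 ran from 0.0849 to 0.42 with single hearts left out, the lowest without wild-type heart 2.

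Among proteins of the working parts of the ribosome none passed the test. Of the stalk that recruits translation factors, Mrpl10 stood at -0.06, Mrpl11 at -0.04 and Mrpl12, the mobile stalk protein, at 0.02, with limma adjusted p of 0.792, 0.881 and 0.930. Mrpl12 had signals of 3566, 2905, 2808 and 2753 in knockdown hearts and 3047, 3155, 2606 and 2834 in wild-type hearts, and its 95% interval ran from -0.20 to 0.24. Mrpl1, of the other stalk, stood at -0.05 (adjusted p = 0.867). At the end of the tunnel through which the new chain leaves, Mrpl23 stood at 0.05 and Mrpl24 at 0.11 (adjusted p = 0.835 and 0.689), while both probes of Mrpl45, the membrane anchor, were detected on no array. Mrps12, which lies where codons are read, stood at -0.21 (-0.44 to 0.02; adjusted p = 0.294). Mrps30, placed in the large subunit by structures, stood at 0.23 (-0.02 to 0.47; adjusted p = 0.280).

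By listed origin, the median log2 difference was -0.02 over 24 large-subunit genes conserved from bacteria and -0.05 over the 17 other large-subunit genes. It was 0.02 over 13 conserved small-subunit genes and -0.03 over 11 other small-subunit genes. For the pair placed in the large subunit by structures, Mrps18a and Mrps30, it was 0.19. The other genes were set apart by a list and not by comparing sequences, and they are not all of mitochondria only. Relatives of bacterial proteins, such as Mrps18b, remain among them, so the split by origin is approximate.

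The large and the small subunit were compared heart by heart. For each heart the median over genes of the normalized log2 value was taken, each gene centred on its mean over the 8 hearts. For the 41 large-subunit genes it was -0.02, -0.06, -0.03 and -0.05 in knockdown hearts 1 to 4 and -0.03, 0.01, 0.12 and 0.07 in wild-type hearts 1 to 4. The knockdown hearts lay close together and below all but wild-type heart 1. For the 26 small-subunit genes it was 0.04, 0.02, -0.04 and 0.07 in knockdown hearts and -0.02, -0.11, 0.06 and 0.0034 in wild-type hearts, with overlapping groups. The large minus the small median averaged -0.06 ± 0.0565 (SD) in knockdown hearts and 0.06 ± 0.0510 in wild-type hearts (n = 4 each). These groups overlapped as well, since knockdown heart 3 (0.01) lay above wild-type heart 1 (-0.01).

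Taken as medians of the gene differences, the large subunit stood at -0.04 with 23 of 41 genes negative and the small subunit at 0.04 with 12 of 26 negative. The gap between them was -0.08. Leaving out wild-type heart 3 brought it to -0.02 and leaving out knockdown heart 1 to -0.03, while the fourth heart of either group, left out in turn, brought it to -0.05. With only probes detected on all 8 arrays at a detection p under 0.01 it was -0.03. With Mrps18a and Mrps30 counted in the large subunit, where structures place them, the gap was -0.04, and with the probes of each gene averaged it was also -0.04. The positive sign of the small-subunit median did not hold throughout. The median was -0.02 with the stricter filter, -0.02 over the 36 small-subunit probes (19 negative) and 0.0038 with Mrps18a and Mrps30 moved. With single hearts left out it stayed positive, from 0.0035 to 0.0369. By the test, none of 50 large-subunit probes was higher and 1 was lower, while 2 of 36 small-subunit probes were higher and 1 lower (limma, adjusted p under 0.05), where 3.42% of all tested probes were higher and 3.16% lower. At an unadjusted p under 0.05 the large subunit had 2 higher and 10 lower probes and the small subunit 4 higher and 5 lower, where 9.92% of all tested probes were higher and 10.9% lower. No test was made of a score over the members.

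**Figure D3:**
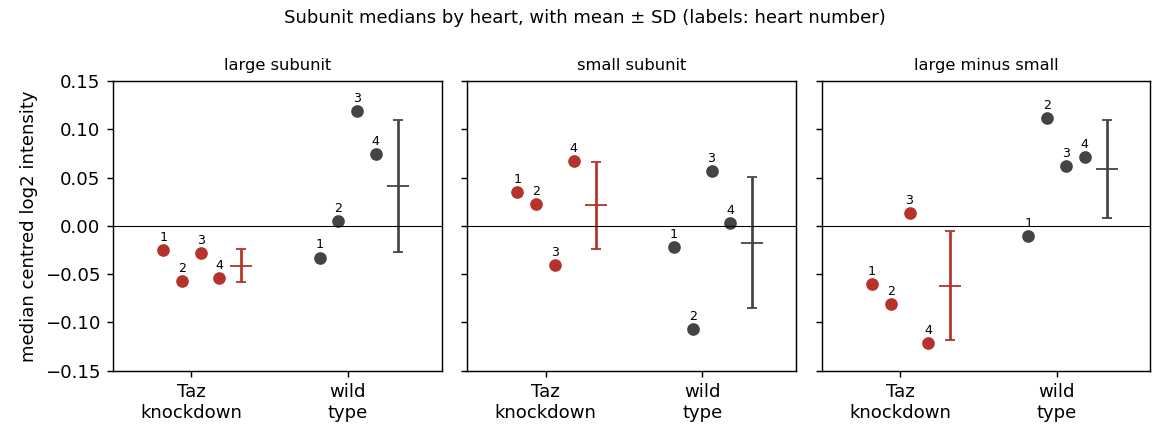
Median centred log2 intensity (y axis) of large-subunit genes, small-subunit genes and their difference, with a point for each heart (labelled by its number) and the mean ± SD of 4 hearts, knockdown at the left of each panel. The groups overlap in every panel, and wild-type heart 3 has the highest large-subunit median (0.12).

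**Figure D4:**
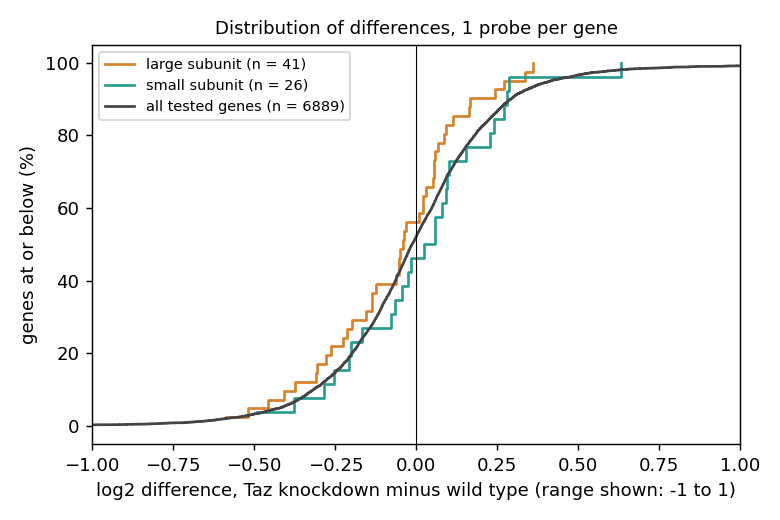
Cumulative share of genes (y axis, percent) at or below each log2 difference of Taz knockdown minus wild type (x axis) for 41 large-subunit genes, 26 small-subunit genes and all 6889 tested genes. The curves run close together, with medians of -0.04, 0.04 and -0.01, and the last step of the small-subunit curve is Mrps18b.

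Of the 67 genes 16 had several tested probes, 35 probes in all. In 13 of them every probe had the same sign. The exceptions were Mrpl3 (-0.16 and 0.03), Mrps11 (-0.02 and 0.02) and Mrps26 (-0.23 and 0.10), whose probes did not pass. The tested probes of Mrps31, a small-subunit protein of mitochondria only, stood at -0.28, -0.25 and -0.07, the first with signals of 1887, 1322, 1336 and 1248 in knockdown hearts and 1768, 1745, 1517 and 1807 in wild-type hearts. The first and second of these had groups that did not overlap after normalization, and none passed (limma adjusted p of 0.151, 0.177 and 0.762). Mrps31 did pass when the variance prior followed intensity. Mrps27 had the widest spread within groups, with a pooled SD of 0.548 on the log2 scale and signals of 86.9, 71.7, 66.3 and 22.8 in knockdown hearts and 110, 50.4, 24.3 and 44.1 in wild-type hearts.

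Other genes of mitochondrial translation were taken from lists of partners. Of 20 listed translation factor genes 13 were tested, and among their 17 probes 1 was lower (5.88%, against 3.16% of all tested probes) and none higher (3.42% of all). The median over genes was -0.11. Tufm, the elongation factor that brings aminoacyl-tRNA to the mitochondrial ribosome, had signals of 5756, 5290, 4793 and 4898 in knockdown hearts and 6644, 7033, 5281 and 6496 in wild-type hearts. Its difference was -0.37 ± 0.0953 (SE; limma adjusted p = 0.0435), and the groups did not overlap after normalization, but the call was lost without any single heart (adjusted p from 0.0612 to 0.114) and with scaling in place of quantile normalization (adjusted p = 0.116). At an unadjusted p under 0.05 no factor probe was higher and Tufm alone was lower, where 9.92% and 10.9% of all tested probes were.

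Of 25 listed genes of ribosome assembly and ribosomal RNA modification 14 were tested, and among their 20 probes 1 was lower (5%, against 3.16% of all tested probes) and none higher (3.42% of all). The median over genes was -0.05. Rpusd4, a pseudouridine synthase known to act on mitochondrial ribosomal RNA, had signals of 320, 261, 251 and 260 in knockdown hearts and 391, 362, 316 and 383 in wild-type hearts. The difference was -0.44 ± 0.104 (SE; limma adjusted p = 0.0293), with groups that did not overlap after normalization. The call held without knockdown heart 4 or wild-type heart 2 and was lost without any of the other 6 hearts, with adjusted p from 0.0249 to 0.0884. Trub2, another mitochondrial pseudouridine synthase, stood at -0.31 (adjusted p = 0.115). At an unadjusted p under 0.05, 3 of the 20 probes were lower: that of Rpusd4, the brighter of Trub2 and the dimmer of Mterf4 (-0.35). The other tested probe of Trub2 gave -0.18, and the brighter probe of Mterf4 gave 0.08. At that p 1 probe was higher, that of the methyltransferase Mrm1 (0.25), where 10.9% of all tested probes were lower and 9.92% higher.

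Of 5 listed mitoribosomal proteins whose symbols start otherwise 2 were tested. The 4 tested probes of Dap3, a GTP-binding protein of the small subunit, gave -0.21, -0.23, -0.25 and -0.12, with limma adjusted p from 0.187 to 0.599. The first 3 of these had an unadjusted p under 0.05, where 10.9% of all tested probes were lower. The 4 probes belong to 1 gene and the same hearts, so they are not independent replicates. Chchd1 stood at -0.03 (adjusted p = 0.891). None of 15 listed RNAs of mitochondrial DNA was found by name among the probes, and they were not analysed here.

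Markers of the cells of the heart were checked in the same arrays, with the brightest probe of each gene. Over all 6889 tested genes 3.22% were higher and 3.43% lower past the threshold (limma). Of 8 tested ventricular muscle markers none passed (limma), with summed normalized signals of 173835 to 185118 in knockdown hearts and 177763 to 191679 in wild-type hearts. All 8 atrial markers were negative with 2 past the threshold, and their sums were 29912 to 41413 in knockdown hearts and 34819 to 63204 in wild-type hearts. Of 6 smooth muscle and pericyte markers 3 were negative and the median was 0.02. In this list 1 marker passed, Acta2, which was higher, and the sums were 15297 to 22799 in knockdown hearts and 9279 to 13469 in wild-type hearts. Of 3 tested leukocyte markers 1 was lower (Lyz2), with sums of 1084 to 1414 in knockdown hearts and 1515 to 1927 in wild-type hearts, and Ptprc, Adgre1, Cd3e and Cd79a were detected on no array. None of 6 fibroblast, 7 endothelial, 3 erythroid and 2 adipocyte markers passed, and their sums overlapped between the groups. All 3 erythroid markers were positive, with a median of 0.59. Postn, Fabp4 and Plin1 among these lists were detected on no array. The part of these differences in the values of Mrps18b, Mrps25 and Mrpl49 was not tested.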

How the data were processed

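The authors' deposited table of background-subtracted intensity values, called non-normalized per the file headers, was read with its detection p-values, also deposited. No source says which scanner software was used or how background was subtracted. Another deposited table, whose intensity values look quantile-normalized, served as an alternative. Gene names came from the annotation of the platform, brought up to date with RefSeq through Entrez numbers. With neqc (limma 3.58.1, R 4.3.3), signals were corrected by normexp from the detection p-values with an offset of 16, quantile-normalized and taken to log2. Groups and heart numbers came from the sample descriptions. Differences were fitted with lmFit and eBayes of limma over all 9397 probes detected on 4 or more arrays, two-sided, with Benjamini-Hochberg adjustment over all of them and a threshold of 0.05. For a gene with several probes the brightest stood for it. The code was tested on simulated arrays. Probe sequences were not used, so cross-hybridisation was not checked. Precision is limited by having 4 arrays in each group. The members and lists were chosen with earlier results of these data known. Named members are those past the threshold, the 8 largest increases and 8 largest decreases, those whose probes differ by over 0.4, and those of the stalk, tunnel exit and decoding site; Mrps31, Mrps27, Mrpl3, Mrps11, Mrps26, Trub2, Mterf4, Mrm1, Dap3, Chchd1 and the neighbouring genes were named after their values were seen. Alternatives were other values, scaling, offset, filters, variance model, array weights, a replicate block, averaged probes and leaving out each heart.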

Additional observations from a re-analysis of the deposited data

Results flagged for a closer look

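In 2 of 70 groups of 4 hearts examined, 1 heart lay far from the others, where chance gives about 1 in 20. For Mrpl16 this was wild-type heart 3, with a normalized log2 value of 4.93, against 5.93 to 6.05 in the other wild-type hearts. For Rpusd4 it was knockdown heart 4, with 8.33, against 8.08 to 8.12 in the other knockdown hearts.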

How the results depend on the processing

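The rise of Mrps18b, by both probes, kept its direction and passed the threshold under all 16 alternatives to the fit. The count of higher mitoribosomal probes was 2 in all of them except with a variance prior that follows intensity, where it was 4. The count of lower probes was 1 with the deposited quantile-normalized values, with scaling to a common median and with no filter, 7 with an offset of 50, 5 with the stricter filter, 8 with the intensity-dependent prior and 0 to 3 with single hearts left out. Among the partner genes the count called, 2 as reported, was 3 with an offset of 50 and with the intensity-dependent prior, 1 with scaling and 0 to 1 with single hearts left out. All tested probes called numbered 943 with the intensity-dependent prior and 392 to 518 with single hearts left out. The large minus small median lay between -0.0889 and -0.0234 with single hearts left out. With the replicate number as a block, all calls numbered 399, the lower mitoribosomal probes 3 (Mrps25, Mrpl36 and Mrpl57; Mrpl49 had adjusted p = 0.0549), and the partner genes 0; deviations of same-numbered hearts correlated at 0.165, 0.0053, -0.09 and -0.0053, so these numbers were not read as pairs. Of 489 values of 31 named probes under the alternatives, 429 kept direction and side of the threshold, 19 newly passed, 30 no longer passed and 11 changed sign. The changes of sign, all of values near 0, came with single hearts left out, over which the dimmest tested Mrpl49 probe ran from -0.20 to 0.11, Mrps18c from -0.0309 to 0.19, Mrpl1 from -0.13 to 0.0518, Mrpl12 from -0.0162 to 0.0515 and Mrpl11 from -0.10 to 0.0017. The causes were not tested. Signal over background limits the dim probes of Mrpl16, Mrpl20, Mrpl52 and Mrpl57, detected on 4 to 7 arrays.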
